A study of Homo sapiens with 12 samples.

Results

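The genes described here are the plasminogen activators PLAU (urokinase) and PLAT (tissue plasminogen activator), the urokinase receptor PLAUR, the serpins SERPINE2 (protease nexin-1), SERPINI1 (neuroserpin) and SERPINB2, and the cell adhesion molecule L1CAM. They were taken by gene symbol from a list of 7 genes, and each was read from the probe set that carries that symbol alone. Of the 7 genes, 6 were measured among 17958 genes in all, each by 1 such probe set, and SERPINB2 was not analysed here. RNA came from 231BR cells, a line that carries EGFP and was derived from the human breast cancer line MDA-MB-231 for growth in the brain. The 12 arrays form 4 groups of 3: cells given 10 nM estradiol and grown with mouse astrocytes, cells given vehicle and grown with mouse astrocytes, cells given 10 nM estradiol alone, and cells given vehicle alone. EGFP-positive cells were sorted after 24 h of co-culture, and all groups share the 1 parental cell line. The series' title asks about paracrine action of estrogen on these cells through astrocytes that carry the estrogen receptor. Nothing in the labels says that the 3 arrays of a group came from separate cultures, so the p-values measure the spread between these arrays, which may be technical.

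Plasminogen is a circulating zymogen that urokinase or tissue plasminogen activator cleaves to plasmin, a protease that degrades fibrin and extracellular matrix. Urokinase acts on the cell surface when bound to its receptor PLAUR, and serpins end the reaction by trapping the activators in covalent complexes. In the brain, astrocytes and neurons supply plasminogen activators, and neuroserpin is the main serpin directed at tissue plasminogen activator. L1CAM, a neural adhesion molecule that some carcinoma cells also make, is a substrate of plasmin. In published mouse models of brain metastasis, serpins made by the tumor cells protected L1CAM and held off plasmin-dependent killing by FasL.

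Values are log2 signal, on which a difference of 1 is a change of 2-fold. Signals of different probe sets cannot be set against each other as amounts of RNA, so each gene is compared only with itself across arrays. The SD of the log2 values within an array, a measure of its range of signal, was 1.62 to 2.10 with estradiol and astrocytes, 1.82 to 2.04 with vehicle and astrocytes, 2.12 to 2.20 with estradiol alone and 2.04 to 2.22 with vehicle alone. The lowest SD of the 12, 1.62, was that of replicate 2 of estradiol with astrocytes, which stood apart, with a correlation over genes of 0.558 to 0.674 with the arrays of cells grown alone. That correlation was 0.832 to 0.905 for replicate 2 of vehicle with astrocytes. For replicate 3 it was 0.903 to 0.945 with estradiol and astrocytes and 0.886 to 0.934 with vehicle and astrocytes. For replicate 1 it was 0.964 to 0.977 and 0.961 to 0.982. Arrays of cells grown alone correlated with each other at 0.967 to 0.997. Of the genes whose mean signal is above the median of all genes, 73.2% had a negative difference with astrocytes against alone, averaged over both treatments (median -0.48), against 21.0% of the genes below it (median 0.40). PLAU, PLAUR, PLAT, SERPINE2 and L1CAM are among the brighter genes by this split and SERPINI1 is among the dimmer. RMA, which the submitters' processing notes name, normally leaves arrays with nearly equal ranges, so which steps were applied to these values is not known. Values of a fit with the array SD as a covariate and of quantile normalization of the deposited values stand beside the results that they move. The mean array SD was 1.89 with estradiol and astrocytes, 1.94 with vehicle and astrocytes, 2.16 with estradiol alone and 2.14 with vehicle alone. The SD thus differs with the culture, so the covariate fit cannot tell the range of signal from a difference with astrocytes. A call lost or gained in that fit decides neither. In a sorted population, fewer cells of a type and less RNA per cell cannot be told apart. The 8 markers of MDA-MB-231-type cells averaged 8.48 to 9.47 with estradiol and astrocytes, 9.06 to 9.41 with vehicle and astrocytes, 9.40 to 9.60 with estradiol alone and 9.31 to 9.64 with vehicle alone, well above the array medians of 4.35 to 4.77. The 11 astrocyte markers averaged 4.74 to 5.11 with estradiol and astrocytes, 4.74 to 4.83 with vehicle and astrocytes, 4.57 to 4.75 with estradiol alone and 4.57 to 4.79 with vehicle alone. In the mean of both treatments, where 47.5% of all genes were called, 5 of these were higher and 2 lower with astrocytes. Of the 8 markers of MDA-MB-231-type cells, 1 was higher and 3 were lower in that mean. The 9 microglial markers measured averaged 4.11 to 5.14 with estradiol and astrocytes, 4.18 to 4.64 with vehicle and astrocytes, 3.84 to 3.97 with estradiol alone and 3.75 to 4.09 with vehicle alone, and 5 were higher with astrocytes in that mean. Markers of other cells also averaged higher with estradiol and astrocytes than with estradiol alone. The ranges were 4.28 to 5.14 against 4.02 to 4.19 for 6 oligodendrocyte markers and 4.99 to 5.17 against 4.73 to 4.96 for 8 luminal breast markers. For 5 neuron markers they were 4.33 to 4.88 against 4.18 to 4.34, which touch. Every dimmer astrocyte, microglial, oligodendrocyte and luminal marker (6, 7, 4 and 5) had a positive difference in the mean of both treatments. So did 3 of 4 dimmer neuron markers. Of the brighter markers, 4 of 5 astrocyte, 1 of 2 microglial, 1 of 2 oligodendrocyte, 2 of 3 luminal and the 1 neuron marker had a negative difference. A mouse transcript is read on these human arrays only through probes that it shares with the human gene, log2 signal has no zero, and the part of astrocyte RNA in the results was not tested.

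Promoter windows of 300 bases around a start site were taken from RefSeq on GRCh38.p14 for the genes that were lower with astrocytes or whose arrays did not overlap. They are printed 5′ to 3′ on the gene's own strand, with motif matches on either strand in capitals. The window of L1CAM at chrX:153875895-153876194, minus strand, holds 4 matches to the GC box GGGCGG (or its reverse complement), starting at -117, -105, 19 and 29 from the start site. The window of SERPINE2 at chr2:224031429-224031728, minus strand, holds the E-box CACGTG at -87 and 1 GC box at -50. The window of PLAU at chr10:73910882-73911181, plus strand, holds 3 GC boxes at -66, -51 and -40. The window of PLAUR at chr19:43670120-43670419, minus strand, holds 1 match to the AP-1 motif TGANTCA, at -186.
L1CAM: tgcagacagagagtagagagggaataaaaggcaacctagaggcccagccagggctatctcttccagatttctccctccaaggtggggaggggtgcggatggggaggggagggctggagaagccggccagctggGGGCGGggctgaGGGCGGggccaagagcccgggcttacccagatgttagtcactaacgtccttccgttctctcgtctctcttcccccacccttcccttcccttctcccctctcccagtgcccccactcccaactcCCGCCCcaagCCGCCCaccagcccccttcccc
SERPINE2: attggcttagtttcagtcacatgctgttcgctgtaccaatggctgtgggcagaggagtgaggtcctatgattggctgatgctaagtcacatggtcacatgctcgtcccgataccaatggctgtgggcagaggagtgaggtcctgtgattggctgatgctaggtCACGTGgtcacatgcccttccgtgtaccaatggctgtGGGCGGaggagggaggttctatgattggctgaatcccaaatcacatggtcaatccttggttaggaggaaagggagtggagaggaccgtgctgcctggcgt
PLAU: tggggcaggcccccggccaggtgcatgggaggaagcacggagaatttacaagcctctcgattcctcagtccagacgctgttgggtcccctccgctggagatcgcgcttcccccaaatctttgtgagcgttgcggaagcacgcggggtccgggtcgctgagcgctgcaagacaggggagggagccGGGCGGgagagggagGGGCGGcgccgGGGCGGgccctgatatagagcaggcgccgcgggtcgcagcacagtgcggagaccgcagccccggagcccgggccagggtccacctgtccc
PLAUR: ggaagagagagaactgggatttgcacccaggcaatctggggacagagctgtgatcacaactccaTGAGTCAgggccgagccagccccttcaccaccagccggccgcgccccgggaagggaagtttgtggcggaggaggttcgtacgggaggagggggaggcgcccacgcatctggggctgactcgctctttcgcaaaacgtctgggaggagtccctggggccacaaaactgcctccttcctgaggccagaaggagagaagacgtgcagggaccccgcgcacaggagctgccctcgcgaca
The 3 motifs matched are common ones: of 35116 promoter windows of this length, 45.0% hold the GC box, 7.26% the E-box and 7.71% the AP-1 motif. The TATA motif TATAAA, in 11.5% of windows, and the palindromic estrogen response element GGTCANNNTGACC, in 0.057%, had no match in these 4 windows. One window a gene is printed, chosen after the matches were seen. The other PLAU window and that of SERPINI1 had no match to any of the 5 motifs, the other SERPINE2 window had 2 GC boxes, at -230 and -183, and the other L1CAM window overlaps the printed one and holds 2 of the same GC boxes. A match is a description of the sequence and says nothing of binding.

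L1CAM and SERPINE2 had lower signal in cells grown with astrocytes, when the 6 arrays with astrocytes were set against the 6 without over both treatments. In that comparison 47.5% of all genes were called. L1CAM was 1.81-fold lower and SERPINE2 2.05-fold lower. Both calls were lost with the array SD as a covariate. The SERPINE2 call was also lost with quantile normalization and in some of the fits that left out a single array. The urokinase receptor and both activators had negative differences that did not pass the test, and neuroserpin had a difference near 0. With either treatment taken by itself, 3 arrays against 3, none of the 6 genes passed. Estradiol gave no detectable difference in any of them.

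**Figure D1:**
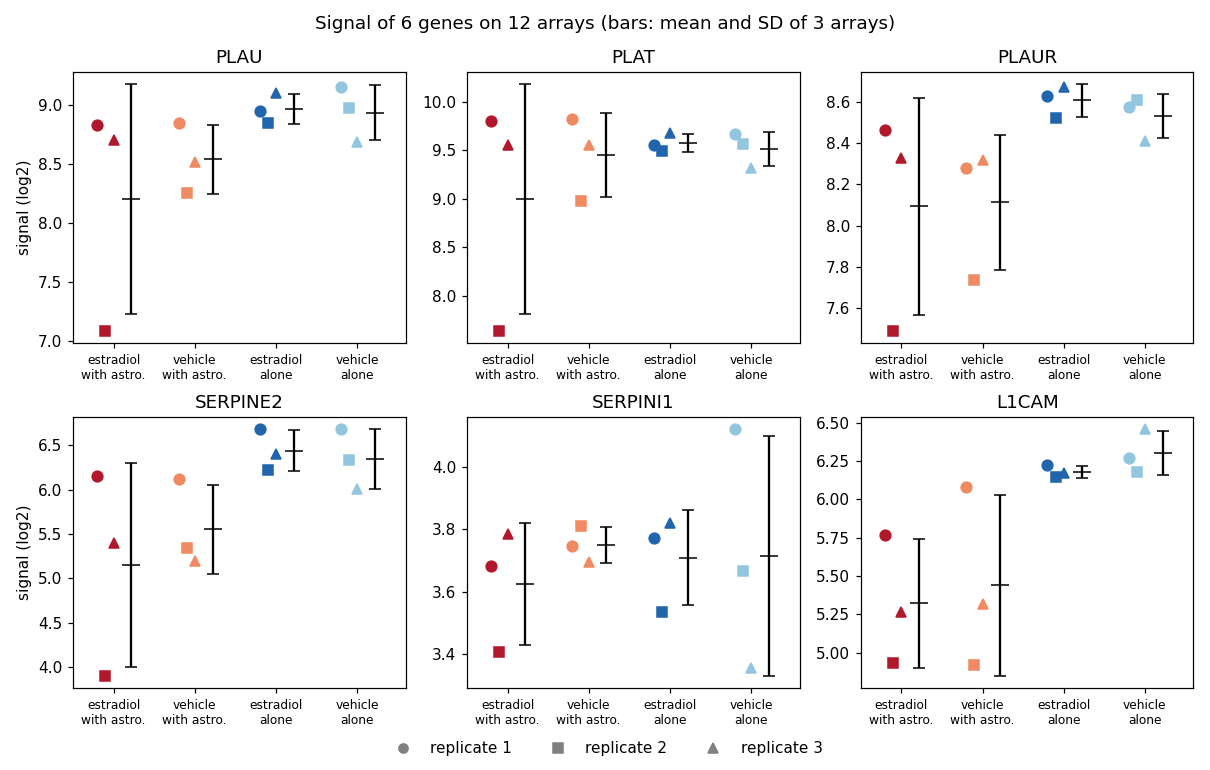
Log2 signal of the 6 measured genes (y axis of each panel) on each of the 12 arrays, with the groups on the x axis in the order estradiol with astrocytes, vehicle with astrocytes, estradiol alone and vehicle alone. Points are arrays and bars are group means with SD (n = 3). L1CAM lies between 4.92 and 6.08 on the arrays with astrocytes and between 6.14 and 6.46 on the arrays without.

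L1CAM encodes the adhesion molecule that plasmin cleaves. Its signal was 5.77, 4.93 and 5.27 with estradiol and astrocytes, 6.08, 4.92 and 5.32 with vehicle and astrocytes, 6.22, 6.14 and 6.17 with estradiol alone, and 6.27, 6.18 and 6.46 with vehicle alone. All 6 arrays with astrocytes were below all 6 without, and replicate 2 was the lowest of each astrocyte group. The group means were 5.32 ± 0.42 with estradiol and astrocytes, 5.44 ± 0.59 with vehicle and astrocytes, 6.18 ± 0.038 with estradiol alone and 6.30 ± 0.14 with vehicle alone (SD, n = 3 each). With astrocytes against alone, the difference was -0.86 in the mean of both treatments (SE 0.21, 95% interval -1.31 to -0.41, limma adjusted p = 0.0104). It was -0.86 under estradiol (SE 0.29, 95% interval -1.50 to -0.22, adjusted p = 0.0627) and -0.86 under vehicle (95% interval -1.50 to -0.22, adjusted p = 0.113), which missed the threshold of 0.05. The difference under estradiol passed without replicate 1 of estradiol with astrocytes (adjusted p = 0.0158) or of vehicle with astrocytes (adjusted p = 0.0395), and that under vehicle passed without replicate 2 of estradiol with astrocytes (adjusted p = 0.0289) or replicate 1 of vehicle with astrocytes (adjusted p = 0.0299). With other single arrays left out, the adjusted p rose as high as 0.181 under estradiol and 0.370 under vehicle. The mean of both treatments kept the call without replicate 2 of both astrocyte groups, at -0.63 (adjusted p = 0.0147), and with any 1 of the 12 arrays left out, at -1.02 to -0.73 (adjusted p = 0.00277 to 0.0304). With the array SD as a covariate it was -0.43 and the call was lost (adjusted p = 0.178).

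SERPINE2 encodes protease nexin-1, which inhibits urokinase, tissue plasminogen activator and thrombin. Its signal was 6.16, 3.90 and 5.40 with estradiol and astrocytes, 6.12, 5.35 and 5.19 with vehicle and astrocytes, 6.68, 6.23 and 6.40 with estradiol alone, and 6.68, 6.34 and 6.01 with vehicle alone. The estradiol groups did not overlap, whereas replicate 1 of vehicle with astrocytes was above replicate 3 of vehicle alone. Replicate 2 of estradiol with astrocytes was the lowest of the 12 arrays. Means were 5.15 ± 1.15 with estradiol and astrocytes, 5.55 ± 0.50 with vehicle and astrocytes, 6.44 ± 0.23 with estradiol alone and 6.34 ± 0.34 with vehicle alone (SD, n = 3 each). The difference with astrocytes was -1.04 in the mean of both treatments (SE 0.33, 95% interval -1.77 to -0.31, adjusted p = 0.0273), -1.28 under estradiol (SE 0.47, adjusted p = 0.0719) and -0.79 under vehicle (SE 0.47, adjusted p = 0.265). Under estradiol it passed without replicate 1 of estradiol with astrocytes (adjusted p = 0.00911), and under vehicle without replicate 2 of estradiol with astrocytes (adjusted p = 0.0499). With other single arrays left out, the adjusted p rose as high as 0.206 under estradiol and 0.549 under vehicle. Without replicate 2 of both astrocyte groups the mean difference was -0.67 and still passed (adjusted p = 0.0369), and with quantile normalization it was -0.89 and did not (adjusted p = 0.0892). The call was lost in 6 of the 12 fits that left out 1 array, those without replicates 1 or 3 of estradiol alone, 1 or 2 of vehicle alone, or 2 or 3 of vehicle with astrocytes (adjusted p = 0.0523 to 0.0690), and with the array SD as a covariate the difference was 0.0027 (adjusted p = 0.994).

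SERPINI1, neuroserpin, gave a signal below the array median on every array. Its group means were 3.62 ± 0.20 with estradiol and astrocytes, 3.75 ± 0.057 with vehicle and astrocytes, 3.71 ± 0.15 with estradiol alone and 3.71 ± 0.39 with vehicle alone (SD, n = 3 each). All groups overlapped, and the whole range over the 12 arrays was 3.36 to 4.12, both ends within vehicle alone. The mean difference with astrocytes was -0.024 (95% interval -0.36 to 0.31, adjusted p = 0.897), so a change of up to 0.36 in size lies within its interval.

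PLAU, the urokinase gene, had a signal of 8.83, 7.09 and 8.70 with estradiol and astrocytes, 8.84, 8.25 and 8.52 with vehicle and astrocytes, 8.95, 8.84 and 9.10 with estradiol alone, and 9.15, 8.97 and 8.68 with vehicle alone. Replicate 2 was the lowest of each astrocyte group, and the 2 remaining arrays with estradiol and astrocytes were also below the lowest array of estradiol alone. Means were 8.20 ± 0.97 with estradiol and astrocytes, 8.54 ± 0.30 with vehicle and astrocytes, 8.96 ± 0.13 with estradiol alone and 8.93 ± 0.24 with vehicle alone (SD, n = 3 each). The difference with astrocytes was -0.58 in the mean of both treatments (SE 0.27, adjusted p = 0.0939), -0.76 under estradiol (SE 0.39, adjusted p = 0.143) and -0.40 under vehicle (adjusted p = 0.468). Replicate 2 made up more of this than of the L1CAM difference: without it in both astrocyte groups the mean difference was -0.23 (adjusted p = 0.164). It was -0.16 with quantile normalization (adjusted p = 0.366) and 0.26 with the array SD as a covariate (adjusted p = 0.260). Without replicate 1 of estradiol with astrocytes, PLAU passed under estradiol (adjusted p = 0.0400) and in the mean of both treatments (adjusted p = 0.0302). With other single arrays left out, the adjusted p rose as high as 0.523 under estradiol and 0.185 in the mean.

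PLAT, the gene of tissue plasminogen activator, had a signal of 9.80, 7.64 and 9.56 with estradiol and astrocytes, 9.83, 8.97 and 9.56 with vehicle and astrocytes, 9.55, 9.49 and 9.68 with estradiol alone, and 9.66, 9.56 and 9.32 with vehicle alone. In both astrocyte groups replicate 1 was above every array of the same treatment alone and replicate 2 below all of them. The means were 8.998 ± 1.18 with estradiol and astrocytes, 9.45 ± 0.44 with vehicle and astrocytes, 9.57 ± 0.094 with estradiol alone and 9.51 ± 0.18 with vehicle alone (SD, n = 3 each). The difference was -0.32 in the mean of both treatments (SE 0.32, 95% interval -1.03 to 0.39, adjusted p = 0.407), -0.58 under estradiol (adjusted p = 0.317) and -0.062 under vehicle (adjusted p = 0.928). Its sign turned without replicate 2 of both astrocyte groups, to 0.14 (adjusted p = 0.336), and with quantile normalization, to 0.046 (adjusted p = 0.843). PLAT was, with the array SD as a covariate, higher with astrocytes by 0.71 in the mean of both treatments (adjusted p = 0.0160) and by 0.82 under vehicle (adjusted p = 0.0297).

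PLAUR, the receptor that holds urokinase at the cell surface, had a signal of 8.46, 7.49 and 8.33 with estradiol and astrocytes, 8.28, 7.74 and 8.32 with vehicle and astrocytes, 8.63, 8.52 and 8.67 with estradiol alone, and 8.58, 8.61 and 8.41 with vehicle alone. The arrays with astrocytes lay below those without in each treatment. Means were 8.09 ± 0.53 with estradiol and astrocytes, 8.11 ± 0.33 with vehicle and astrocytes, 8.61 ± 0.078 with estradiol alone and 8.53 ± 0.11 with vehicle alone (SD, n = 3 each). The mean difference was -0.47 (SE 0.19, 95% interval -0.87 to -0.059, adjusted p = 0.0567), with -0.51 under estradiol (adjusted p = 0.146) and -0.42 under vehicle (adjusted p = 0.285). Without replicate 2 of both astrocyte groups it was -0.22 (adjusted p = 0.0905), with quantile normalization -0.029 (adjusted p = 0.819), and with the array SD as a covariate 0.036 (adjusted p = 0.884). The mean difference passed without replicate 1 of estradiol with astrocytes (adjusted p = 0.0220), and with other single arrays left out its adjusted p rose as high as 0.132.

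**Figure D2:**
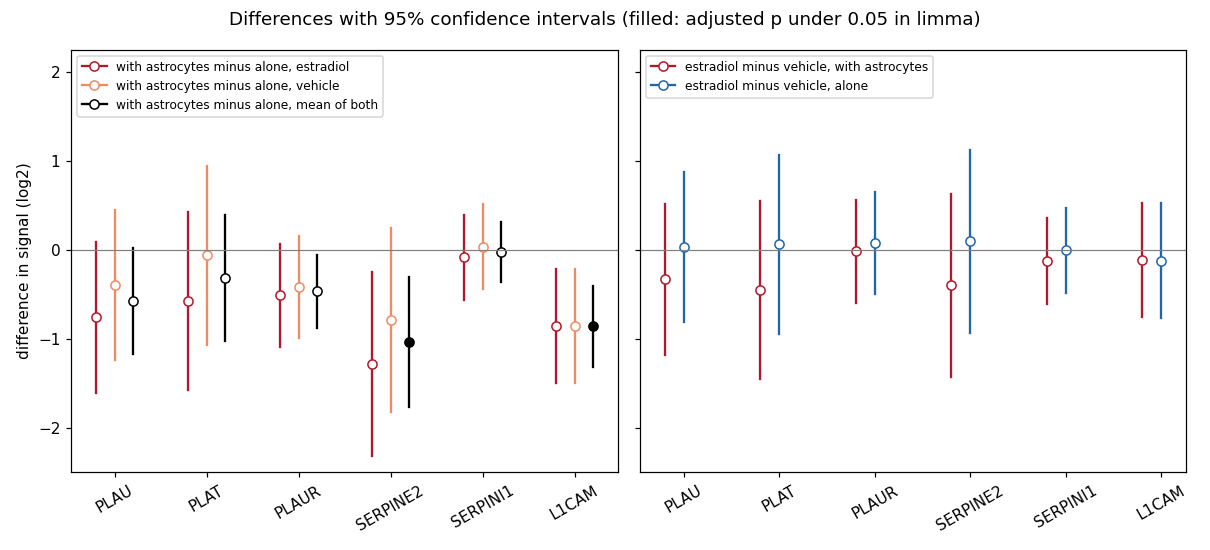
Difference in log2 signal (y axis) of each gene (x axis) with its 95% interval from the limma fit, for the 3 comparisons of cells with astrocytes against alone (left) and the comparisons of estradiol against vehicle in each culture (right). Filled points have an adjusted p under 0.05. The intervals of L1CAM and SERPINE2 with astrocytes against alone, in the mean of both treatments, run from -1.31 to -0.41 and from -1.77 to -0.31, and those of the estradiol comparisons all span 0.

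Set against all genes, the count of calls does not set these genes apart. With estradiol, 0 of the 6 passed in limma with astrocytes against alone, where 13.2% of all genes were called. An unadjusted p under 0.05 was found there for 2 of the 6 and for 43.9% of all genes. With vehicle, 0 of the 6 passed, where 0.0557% of all genes were called. The unadjusted p was under 0.05 there for 1 of the 6 and for 28.2% of all genes. In the mean of both treatments 2 of the 6 passed, where 47.5% of all genes did. Arrays with astrocytes and arrays alone did not overlap for 4 of the 6 genes under estradiol (50.9% of all genes), for 2 of the 6 under vehicle (41.8%) and for 1 of the 6 over both treatments (23.6%). The median difference of the 6 genes was -0.67 under estradiol, -0.41 under vehicle and -0.52 in the mean of both, against medians over all genes of 0.066, 0.059 and 0.065. The brighter genes by that split, among which 5 of the 6 lie, had medians of -0.58, -0.37 and -0.48. The comparisons under estradiol and under vehicle share no arrays, but each enters the mean of both. They also share the estimate of spread from the fit over all 12 arrays. Leaving out an array outside a comparison can therefore move its p-values while its difference stays the same.

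**Figure D3:**
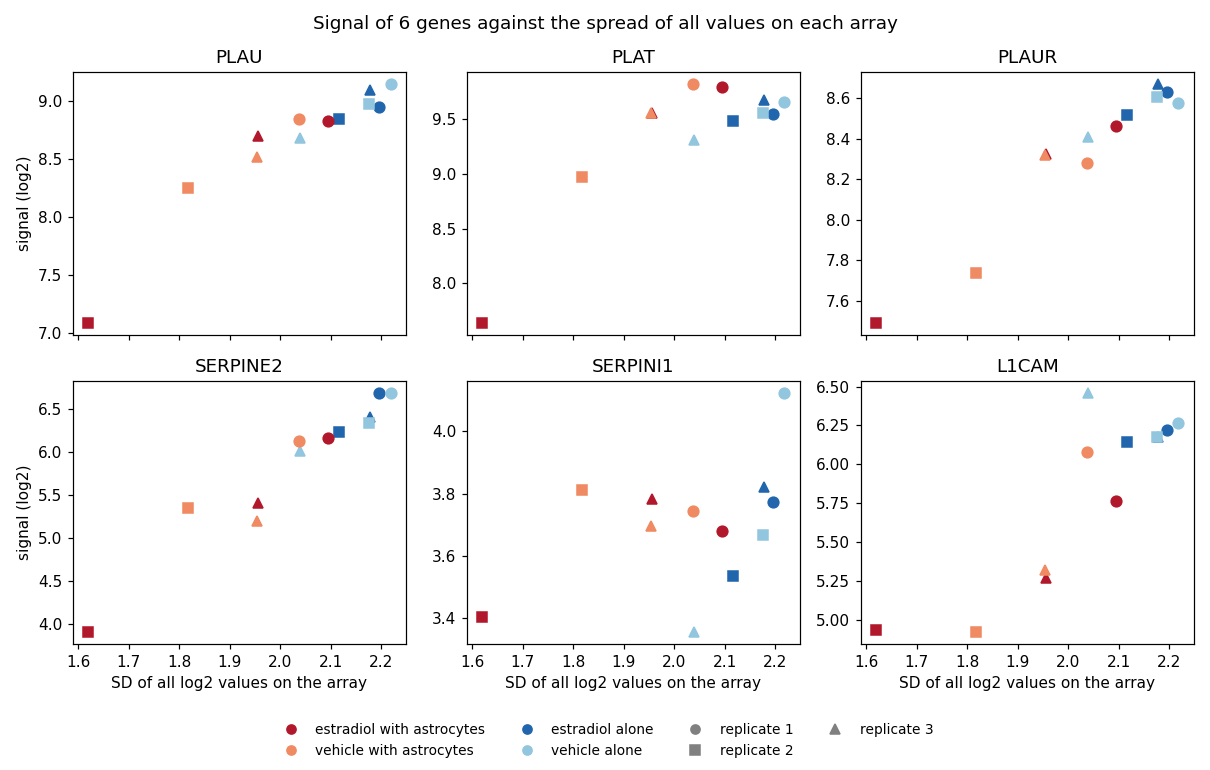
Log2 signal of each gene (y axis) against the SD of all log2 values on the same array (x axis), 1 point for each of the 12 arrays, coloured by group. The array with the lowest SD, 1.62, is replicate 2 of estradiol with astrocytes, which has the lowest signal of PLAU, PLAUR, PLAT and SERPINE2.

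The order of the group means was the same for PLAU, PLAUR, PLAT and SERPINE2, highest in cells given estradiol alone, next with vehicle alone, then in vehicle with astrocytes, and lowest in estradiol with astrocytes. Neighbouring groups in that order overlapped, except vehicle with astrocytes and vehicle alone for PLAUR. For L1CAM vehicle alone was highest, followed by estradiol alone, then vehicle with astrocytes, then estradiol with astrocytes, and the gap lay between the cultures and not between the treatments. For SERPINI1 the 4 means lay within the spread of vehicle alone. The lowest array among those grown alone was replicate 3 of vehicle alone for PLAU, PLAUR, PLAT, SERPINE2 and SERPINI1. That array also had the lowest SD of the 6 grown alone, 2.04, and it had the highest signal of L1CAM among the 12.

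Activators and their inhibitor did not move by the same amount within an array. This difference between probe sets, chosen after the values were seen and given with no test, shows unequal change and not an amount of either RNA. PLAT minus SERPINE2 was 3.84 ± 0.28 with estradiol and astrocytes, 3.90 ± 0.41 with vehicle and astrocytes, 3.14 ± 0.23 with estradiol alone and 3.17 ± 0.17 with vehicle alone (SD, n = 3 each). It was 3.63 to 4.36 on the 6 arrays with astrocytes and 2.87 to 3.31 on the 6 without, with no overlap. Of all single genes 23.6% did not overlap in this split, and the share of gene pairs that do not was not counted. PLAT has a higher mean than 98.6% of all genes and SERPINE2 than 65.3%. The part that the unequal ranges of the arrays have in this difference was not tested. PLAU minus SERPINE2 was 3.05 ± 0.34 with estradiol and astrocytes, 2.98 ± 0.31 with vehicle and astrocytes, 2.53 ± 0.23 with estradiol alone and 2.59 ± 0.11 with vehicle alone (SD, n = 3 each). Its range with astrocytes, 2.67 to 3.32, touched the upper end of the range without, 2.27 to 2.70.

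Estradiol was compared with vehicle in each culture. In cells grown alone, the differences of the 6 genes ran from -0.12 for L1CAM to 0.093 for SERPINE2, and 0 of the 6 passed in limma (0 at an unadjusted p under 0.05), where 0% of all genes were called and 1 gene had an unadjusted p under 0.05. The 95% interval of the L1CAM difference was -0.76 to 0.52 and that of the SERPINE2 difference -0.94 to 1.12. In cells grown with astrocytes, all 6 differences were negative, from -0.45 for PLAT and -0.40 for SERPINE2 to -0.019 for PLAUR, and again 0 of the 6 passed (0 unadjusted), where 0% of all genes were called and 142 had an unadjusted p under 0.05. The intervals there were -1.46 to 0.55 for PLAT and -1.43 to 0.63 for SERPINE2. Without replicate 2 of estradiol with astrocytes the difference was 0.22 for PLAU, 0.28 for PLAUR, 0.23 for PLAT, 0.23 for SERPINE2 and 0.077 for L1CAM, and it was -0.018 for SERPINI1. Without replicate 2 of both astrocyte groups it was positive for PLAU, PLAUR, SERPINE2 and SERPINI1, and it was -0.013 for PLAT and -0.18 for L1CAM.

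Whether the astrocyte difference changed with estradiol was tested as an interaction. It was 0.0033 for L1CAM (SE 0.41, 95% interval -0.90 to 0.91), whose differences with astrocytes were nearly equal under both treatments. The other 5 values were negative, from -0.51 for PLAT and -0.49 for SERPINE2 to -0.095 for PLAUR. In limma 0 of the 6 passed (0 unadjusted), where 0% of all genes were called and 31 had an unadjusted p under 0.05. The intervals of PLAT, -1.93 to 0.91, and SERPINE2, -1.95 to 0.97, reach well past 0 in both directions.

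Among other genes of the plasminogen system, 34 of 36 listed genes were measured. With astrocytes against alone under estradiol, 3 were higher and 4 lower, where 13.2% of all genes were called, and their median difference was 0.14, against 0.066 over all genes. Under vehicle none passed in limma (median 0.16). At an unadjusted p under 0.05, which 28.2% of all genes had under vehicle, 7 were higher and 4 lower. In the mean of both treatments 11 were higher and 7 lower, where 47.5% of all genes were called (median 0.19). Among the genes with the smallest p-values were 2 receptors and a cofactor that fell. VLDLR, an endocytic receptor that clears complexes of urokinase and its serpins, was 4.43 ± 0.33 with estradiol and astrocytes and 5.76 ± 0.15 with estradiol alone (SD, n = 3 each), a difference of -1.33 (adjusted p = 0.0294). Its difference under vehicle was -1.30 (adjusted p = 0.0720). THBD, thrombomodulin, was 6.27 ± 0.20 with estradiol and astrocytes and 7.37 ± 0.0098 with estradiol alone, a difference of -1.10 (adjusted p = 0.0336), with -0.74 under vehicle (adjusted p = 0.0988). Both stayed past the threshold under estradiol with the array SD as a covariate, at -1.14 for VLDLR (adjusted p = 0.0359) and -1.13 for THBD (adjusted p = 0.0386). IGF2R, a sorting receptor that also binds PLAUR and plasminogen, differed by -1.71 under estradiol (adjusted p = 0.0351) and by -1.20 under vehicle (adjusted p = 0.105). With the array SD as a covariate it differed by -0.86 under estradiol and the call was lost (adjusted p = 0.0880). PLG, plasminogen itself, was 4.48 ± 0.43 with estradiol and astrocytes and 3.37 ± 0.099 with estradiol alone, a difference of 1.11 (adjusted p = 0.0351), and with the array SD as a covariate the difference was 0.62 (adjusted p = 0.0756). PLG has close copies in the genome, such as LPA, and whether its probes tell them apart was not tested. On the arrays of cells grown alone the PLG signal was 3.17 to 3.59, below the array medians. By the split of genes by mean signal, 16 of the list's 19 dimmer genes had a positive difference under estradiol, and 12 of its 15 brighter genes a negative one. Of all dimmer genes, 20.3% had a negative difference in that comparison.

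Of 22 other serpins listed, 18 were measured. Under estradiol, where 13.2% of all genes were called, 3 were higher with astrocytes and none lower (median 0.28). Under vehicle none passed in limma (median 0.21), and 4 were higher at an unadjusted p under 0.05, which 28.2% of all genes had. In the mean of both treatments, where 47.5% of all genes were called, 6 were higher and none lower (1 unadjusted, median 0.25). SERPING1, the inhibitor of complement C1 and of plasma kallikrein, was 4.81 ± 0.87 with estradiol and astrocytes and 3.59 ± 0.088 with estradiol alone (SD, n = 3 each), a difference of 1.22 (adjusted p = 0.0496). SERPINB13 differed by 0.88 (adjusted p = 0.0352) and SERPINB12 by 0.72 (adjusted p = 0.0496), both epithelial serpins of dim signal here. Their 3 differences with the array SD as a covariate were 0.34 for SERPING1 (adjusted p = 0.367), 0.67 for SERPINB13 (adjusted p = 0.0809) and 0.34 for SERPINB12 (adjusted p = 0.277). Under vehicle the smallest p-values among these serpins were of SERPINB10, at 0.55 (adjusted p = 0.102), SERPINB13, at 0.60 (adjusted p = 0.112), and SERPINA3, an acute-phase serpin, at 0.89 (adjusted p = 0.136). Of the 18, 13 are among the dimmer genes by the same split, SERPING1, SERPINB12 and SERPINB13 included. Of those 13, 12 had a positive difference in the mean of both treatments, whereas 3 of the 5 brighter ones had a negative one.

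A further list held the L1 family, binding partners of L1CAM, proteases that cleave it and the FasL pair, and 23 of its 24 genes were measured. None was higher and 7 were lower with astrocytes under estradiol, where 13.2% of all genes were called (median -0.78). At an unadjusted p under 0.05, which 43.9% of all genes had under estradiol, 2 were higher and 11 lower. None passed under vehicle in limma (median -0.42), and 7 were lower at an unadjusted p under 0.05, which 28.2% of all genes had. In the mean of both treatments 2 were higher and 10 lower, where 47.5% of all genes were called (median -0.54). All 14 of the list's brighter genes had negative differences in the mean of both treatments, where 73.2% of all brighter genes did. ITGAV, the integrin subunit that binds L1CAM and vitronectin, was 5.78 ± 1.00 with estradiol and astrocytes and 7.90 ± 0.14 with estradiol alone (SD, n = 3 each), a difference of -2.13 (adjusted p = 0.0380). NRP1, a coreceptor of L1CAM in axon guidance, was 6.13 ± 0.71 with estradiol and astrocytes and 7.73 ± 0.074 with estradiol alone, a difference of -1.60 (adjusted p = 0.0360). ANK2, an ankyrin that ties L1 family proteins to the membrane skeleton, was 5.03 ± 0.29 with estradiol and astrocytes and 6.18 ± 0.063 with estradiol alone, a difference of -1.15 (adjusted p = 0.0338). Under vehicle their differences were -1.54 for ITGAV (adjusted p = 0.118), -1.13 for NRP1 (adjusted p = 0.111) and -1.06 for ANK2 (adjusted p = 0.0816), and ADAM17, a sheddase of L1CAM, differed by -1.61 (adjusted p = 0.111). With the array SD as a covariate the differences under estradiol were -1.10 for ITGAV (adjusted p = 0.189), -0.88 for NRP1 (adjusted p = 0.131) and -0.91 for ANK2 (adjusted p = 0.0729).

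**Figure D4:**
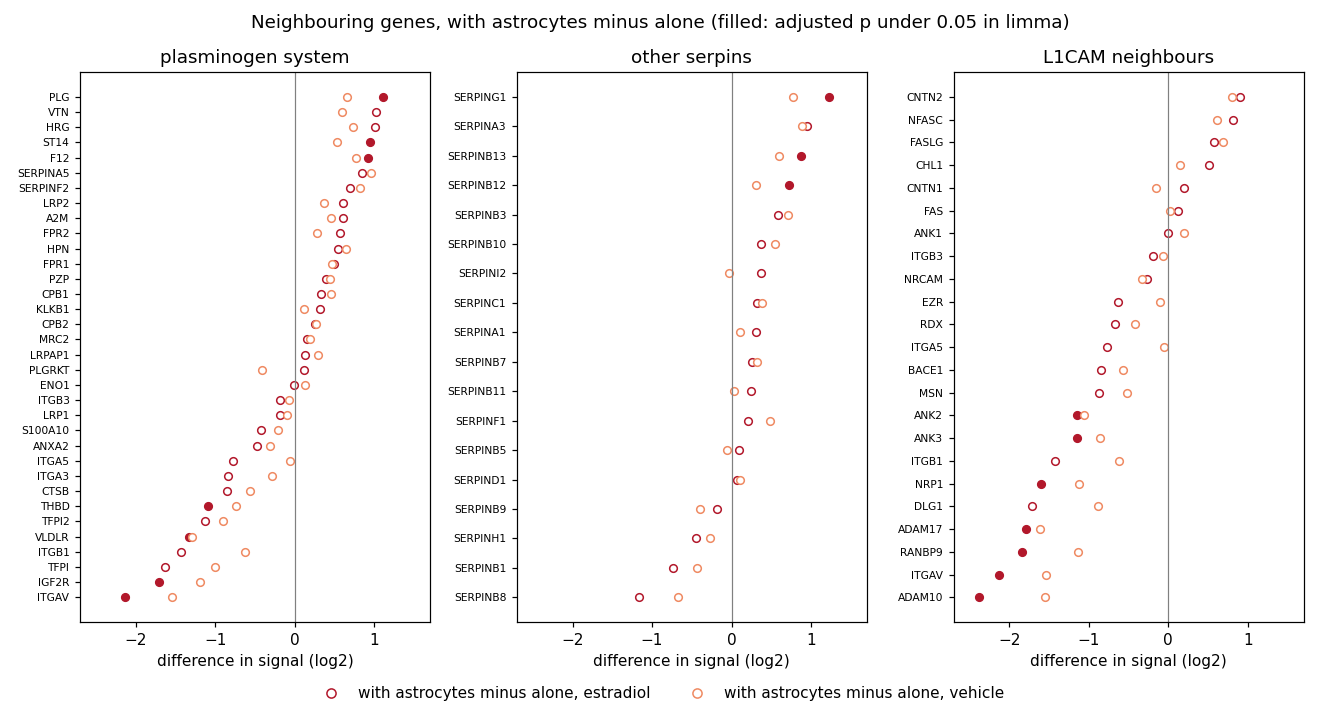
Difference in log2 signal (x axis) with astrocytes against alone, under estradiol (dark) and under vehicle (light), of each measured gene (y axis) of the 3 lists. Points are filled where the adjusted p is under 0.05. Under estradiol the L1CAM list has 7 genes lower and the serpin list 3 higher past the threshold, and no gene of the 3 lists passes under vehicle.

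Without replicate 2 of both astrocyte groups, 4 genes of the plasminogen list, 2 of the serpin list and 1 of the L1CAM list passed under estradiol. Of all 17958 genes, 1651 passed in that fit and 2366 in the main fit. With the array SD as a covariate 2, 1 and 0 passed (469 of all genes). With only the arrays of the compared groups in the limma fit none did, and 10, 3 and 8 had an unadjusted p under 0.05 (5353 of all genes). Over the fits that left out 1 array, the counts under estradiol ran from 0 to 19 of the plasminogen list, from 0 to 5 of the serpins and from 0 to 16 of the L1CAM list. Those of all genes ran from 3 to 9222. The counts of 0 under vehicle became 11, 4 and 10 without replicate 2 of estradiol with astrocytes, 4, 0 and 4 without replicate 1 of vehicle with astrocytes, and 3, 2 and 2 with the array SD as a covariate. Over all genes, the 10 calls under vehicle became 6107, 1630 and 1166 in these fits. In the mean of both treatments the lists' counts were 5, 3 and 2 with the array SD as a covariate (2584 of all genes) and 9, 3 and 9 with quantile normalization (6339 of all genes, against 8528 in the main fit). With 1 array left out they ran there from 9 to 24, from 4 to 7 and from 7 to 15, with 9 to 11 of the plasminogen list without replicates 1 or 3 of estradiol alone, 1 or 2 of vehicle alone, or 2 or 3 of vehicle with astrocytes, and 7 of the L1CAM list without replicate 1 of either group grown alone or replicate 2 of vehicle with astrocytes. Of all genes, 4770 to 11339 passed in that mean with 1 array left out. No gene of the 3 lists passed in the estradiol comparisons or the interaction in limma, and none had an unadjusted p under 0.05 there. ITGAV, ITGA5, ITGB1 and ITGB3 are in both the plasminogen list and the L1CAM list, and the lists were chosen with earlier results of these data known.

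The genes whose profile over the 12 arrays was most like each of the 6 were found by the root mean square difference of log2 signal after each gene's own mean was subtracted, among 16785 genes. Closest to L1CAM were NEK6 at 0.092, MRI1 at 0.096 and ABTB2 at 0.115. Closest to PLAU were DUSP5 at 0.083, TM4SF1 at 0.085 and ELOA at 0.093. PLAUR lay closest to METTL17 at 0.070, SLC1A5 at 0.073 and RBM4 at 0.076, and PLAT to KNSTRN at 0.093, DHCR7 at 0.099 and NIBAN2 at 0.0995. SERPINE2 lay closest to RBM22 at 0.101, GABRA3 at 0.109 and DHX29 at 0.113, and SERPINI1 to VWA5A at 0.116, CLIC1 at 0.121 and YBX1 at 0.122. Among the 6 genes themselves, PLAU and PLAT were the closest pair at 0.180 and SERPINE2 and SERPINI1 the farthest at 0.691. All these profiles share the same 12 arrays and the same differences in range of signal between them.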

How the data were processed

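Gene expression was measured in 12 samples of 231BR cells, 1 Affymetrix Human Gene ST array each. The authors deposited log2 values for 33297 probe sets; per the submitters' processing notes, RMA and Partek were used, in an order and versions not given in the sources used here, and with arrays of differing SD, which steps the values went through is not known. Arrays have no read depth, and their number limits the precision. Of the probe sets, 19181 have 1 gene symbol in the platform's probe table, 2055 have several and 12061 are not listed there. Where a gene had several probe sets with 1 symbol (895 genes), the one with the highest mean was used, which left 17958 genes with no filter on signal.

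Tests used limma 3.58.1 (R 4.3.3), with lmFit on group means over all 12 arrays, contrasts.fit and eBayes, two-sided, with Benjamini-Hochberg adjustment over the 17958 genes of each comparison and a threshold of 0.05. The smallest two-sided p that exact permutation of 3 against 3 arrays allows is 0.1. The code was tested on simulated data.

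The genes described and the lists were chosen with earlier results of these data known. From each list the text names the 3 genes with the smallest p in each of the 2 astrocyte comparisons. Arrays of the same number in the 2 astrocyte groups deviated together from their means (r = 0.789, 0.756 and 0.214). These groups were therefore also fitted with the number as a block, although the labels do not say what it marks. Alternatives were the replicate block, quantile normalization, median centring, the array SD as a covariate, averaged probe sets per gene, genes above the median signal, trend and robust moderation, arrayWeights, the compared groups only, replicate 2 of both astrocyte groups left out, and each array left out in turn. Promoter windows are RefSeq's, on GRCh38.p14, and were used for 6 of the 7 genes, matched by symbol (PLAT's was not used here).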

Additional observations from a re-analysis of the deposited data

How the results depend on the processing

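L1CAM kept a negative difference with astrocytes in all 3 comparisons under every alternative run, and in the mean of both treatments it passed in each except the fit with the array SD as a covariate. In the count of the 6 genes that passed under estradiol, 0 became 2 with the replicate block (SERPINE2 and L1CAM), 4 with arrayWeights and 0 to 3 with 1 array left out. Replicate 1 of estradiol with astrocytes gave the 3 (PLAU, SERPINE2 and L1CAM). Under vehicle, 0 became 1 with the replicate block (L1CAM), 2 with the replicate block over only the arrays of the compared groups (an alternative chosen after seeing the data), 1 with the array SD as a covariate (PLAT, higher), 4 with arrayWeights and 0 to 2 with 1 array left out. In the mean of both treatments, 2 became 1 with quantile normalization (SERPINE2 was lost), 1 with the array SD, 4 with arrayWeights and 1 to 4 with 1 array left out. arrayWeights stopped before it converged. The replicate block (whose lists' calls under vehicle were 6, 0 and 5) changed no call among the 6 in the estradiol comparisons or the interaction. Calls gained with this block rest on a pairing that also takes in the arrays grown alone, whose numbers did not all deviate together. Over all genes under estradiol, calls were 2366, and 6691 with the replicate block, 542 with quantile normalization, 469 with the array SD, 14777 with arrayWeights, 1651 without replicate 2 of both astrocyte groups and 0 with only the compared groups (5353 at an unadjusted p under 0.05). With 1 array left out they were 3 to 9222 (9222 without replicate 1 of estradiol with astrocytes). Under vehicle they were 10, and 2583 with the replicate block (4684 over only the compared groups). With the array SD they were 1166, with arrayWeights 12445 and with 1 array left out 2 to 6107. In the mean of both, 8528 became 6339 with quantile normalization and 2584 with the array SD. It became 14987 with arrayWeights and 4770 to 11339 with 1 array left out. The cause of these shifts was not tested. Restricting the fit to genes above the median signal gave no value for SERPINI1.

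Signs turned as follows, past the threshold only for PLAT with the array SD. Without replicate 2 of both astrocyte groups, PLAT with astrocytes was 0.11 under estradiol, 0.18 under vehicle and 0.14 in the mean, SERPINI1 was 0.024 under estradiol and 0.015 in the mean, estradiol against vehicle with astrocytes was 0.083 for PLAU, 0.095 for PLAUR, 0.12 for SERPINE2 and 0.012 for SERPINI1, and the interaction was -0.062 for L1CAM, 0.053 for PLAU, 0.019 for PLAUR, 0.031 for SERPINE2 and 0.018 for SERPINI1. With the array SD, the values under estradiol, under vehicle and in the mean were 0.59, 0.82 and 0.71 for PLAT, 0.20, 0.33 and 0.26 for PLAU, and 0.056, 0.015 and 0.036 for PLAUR. SERPINE2 was 0.11 under vehicle and 0.0027 in the mean, and SERPINI1 was 0.17 under estradiol and 0.20 in the mean. Estradiol against vehicle alone was -0.022 for PLAT and -0.037 for PLAU, and for PLAUR it was 0.077 with astrocytes and 0.041 for the interaction. With arrayWeights, estradiol against vehicle with astrocytes was 0.029 for PLAT, 0.17 for PLAU, 0.075 for PLAUR, 0.069 for SERPINE2 and 0.069 for SERPINI1, the interaction was -0.099 for L1CAM, 0.11 for PLAU, 0.040 for PLAUR and 0.0022 for SERPINE2, and SERPINI1 was 0.076 for estradiol against vehicle alone, and 0.024 under estradiol and 0.027 in the mean with astrocytes. With median centring, SERPINI1 was 0.021 for estradiol against vehicle alone and -0.11 for astrocytes under vehicle, and the L1CAM interaction was -0.028. With quantile normalization, PLAT was 0.22 under vehicle and 0.046 in the mean, PLAUR was 0.0080 under estradiol, 0.12 for estradiol with astrocytes and 0.075 for the interaction, and SERPINI1 was 0.030 for estradiol against vehicle alone and -0.21 for astrocytes under vehicle.

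With 1 array left out, signs turned within these ranges. With astrocytes against alone they were -0.98 to 0.11 under estradiol, -0.25 to 0.18 under vehicle and -0.52 to 0.022 in the mean for PLAT, and -0.17 to 0.024, -0.14 to 0.24 and -0.11 to 0.077 for SERPINI1. For estradiol against vehicle alone they were -0.039 to 0.13 for PLAT, -0.096 to 0.14 for PLAU, -0.074 to 0.26 for SERPINE2 and -0.19 to 0.20 for SERPINI1. For estradiol against vehicle with astrocytes they were -0.38 to 0.20 for L1CAM, -0.85 to 0.23 for PLAT, -0.65 to 0.22 for PLAU, -0.21 to 0.28 for PLAUR and -0.90 to 0.23 for SERPINE2. For the interaction they were -0.26 to 0.32 for L1CAM, -0.91 to 0.17 for PLAT, -0.68 to 0.19 for PLAU, -0.28 to 0.21 for PLAUR, -0.99 to 0.13 for SERPINE2 and -0.33 to 0.058 for SERPINI1.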
